A study of Mus musculus with 20 samples.

Results

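The 9 genes described here are the transcription factors Neurog3, Neurod1, Insm1, Nkx2-2, Pax4, Rfx6, Isl1, Fev and Pax6, which build and maintain the enteroendocrine cells, the hormone-secreting cells of the gut. They were taken by their symbols, and all 9 had a row among the 17294 gene names of the acute table and the 16195 of the prolonged table. All 9 passed the filter on low values at both times. RNA-seq of jejunal epithelium was deposited for 20 female mice in 4 groups. Both DKO groups carried a knockout of Kdm6a and Kdm6b, which encode the demethylases that remove the repressive histone mark H3K27me3, and both control groups are labelled Control/WT. There were 7 acute DKO and 5 acute control libraries, from 7 days post ablation, and 5 prolonged DKO and 3 prolonged control libraries, from 5 months post ablation. The series design speaks of crypt epithelium. The labels used here name neither the strain, the age, the recombinase nor the inducing agent. Reads of Esr1, the estrogen receptor alpha gene, part of which is used in inducible recombinases, averaged 37.7 ± 2.93 CPM in acute DKO libraries and 0.363 ± 0.0946 CPM in acute controls, and 32.6 ± 2.69 and 0.278 ± 0.117 CPM in the prolonged groups. Whether these reads come from a transgene was not tested, and if the DKO mice alone carried one, its effects and those of the knockout cannot be told apart in any comparison below.

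Enteroendocrine cells arise in the crypt from secretory progenitors that escape Notch signalling and switch on Neurog3 for a short time. Neurog3, a basic helix-loop-helix factor, then turns on a cascade of further factors that steer cells towards particular hormones. These cells are a small minority of the epithelium, so their transcription factors give low values in bulk RNA. In bulk samples, fewer cells of a type and less RNA per cell cannot be told apart, which holds for every value below.

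Values are CPM, a gene's reads scaled to an equal total of reads in genes per library, given as mean ± SD. Libraries held 19134272 to 26586045 reads in genes (acute DKO), 15435118 to 26549494 (acute control), 12560843 to 20612206 (prolonged DKO) and 9914738 to 23181576 (prolonged control). No DKO library reached the level of any control of its time for either targeted gene. Kdm6a averaged 42.6 ± 2.73 CPM in acute DKO libraries and 66.1 ± 6.62 CPM in acute controls, and Kdm6b averaged 70.4 ± 8.87 and 101 ± 6.71 CPM in the same groups. On the first principal component of all tested genes, DKO 3 and DKO 4 of the acute time lay away from the rest, at -34.0 and -45.9, where the other 10 libraries lay between -12.1 and 28.0. Acute values of the members and of the other genes called are therefore also given without these libraries. The 8 epithelial markers, Epcam, Cdh1, 4 keratins and 2 Cdx factors, summed to between 8729 and 9979 CPM in acute DKO libraries and between 8816 and 9182 CPM in acute controls. That sum hides opposite shifts. Epcam was above every acute control in 7 of 7 DKO libraries (2083 ± 101 and 1829.5 ± 32.3 CPM). Cdh1 was below every one in 7 of 7 (844 ± 35.8 and 956 ± 36.1 CPM). Of the 8, Cdh1 alone was called, as lower (adjusted p = 0.0347 by limma, described below). The granule proteins Chga and Chgb, which define enteroendocrine cells, averaged 111 ± 39.3 and 148 ± 44.3 CPM in acute DKO libraries and 83.1 ± 6.79 and 187 ± 16.3 CPM in acute controls.

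Pax6 was the member whose level fell at both times, and its promoters are shown for that reason, with that of Neurog3, the gene that opens the cascade. The sequences are from RefSeq (build GRCm38.p6, which is not the build of the deposited tables), each running from upstream of an annotated start into the first bases of the transcript, 5′ to 3′ on the strand of the gene. Capitals mark matches to the E-boxes CAGATG (or CATCTG on the other strand) and CAGCTG, letters that helix-loop-helix factors can bind.
Pax6, start 1, chr2:105668646-105668945, plus strand: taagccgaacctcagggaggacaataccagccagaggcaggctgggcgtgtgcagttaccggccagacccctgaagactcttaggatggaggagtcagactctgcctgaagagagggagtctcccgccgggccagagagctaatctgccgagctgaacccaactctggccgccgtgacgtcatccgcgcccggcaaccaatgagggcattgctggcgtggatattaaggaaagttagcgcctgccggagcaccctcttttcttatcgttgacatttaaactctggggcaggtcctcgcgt
Pax6, start 2, chr2:105682213-105682512, plus strand: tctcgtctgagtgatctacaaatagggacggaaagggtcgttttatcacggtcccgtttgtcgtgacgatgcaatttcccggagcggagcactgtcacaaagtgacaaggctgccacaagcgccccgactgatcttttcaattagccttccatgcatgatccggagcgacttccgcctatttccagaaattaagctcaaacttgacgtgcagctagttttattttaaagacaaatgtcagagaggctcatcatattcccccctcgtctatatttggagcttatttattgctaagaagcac
Neurog3, chr10:62132840-62133139, plus strand: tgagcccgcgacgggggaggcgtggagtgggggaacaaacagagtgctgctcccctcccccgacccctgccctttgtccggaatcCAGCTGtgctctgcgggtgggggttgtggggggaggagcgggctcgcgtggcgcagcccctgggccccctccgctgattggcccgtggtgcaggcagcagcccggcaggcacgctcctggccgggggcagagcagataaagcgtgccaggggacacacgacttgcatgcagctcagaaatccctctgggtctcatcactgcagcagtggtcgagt

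Promoters of 7 members were at hand, 8 in all because Pax6 has 2 annotated starts, and Pax4 and Insm1 had no entry. Neither Pax6 promoter held either E-box, and Neurog3 held CAGCTG once. Across the 8 promoters CAGATG was found in 1, that of Nkx2-2, and CAGCTG in 2, those of Neurog3 and Isl1, while 17.15% and 16.3% of the 32851 promoters of the same length held these letters. Such matches describe the letters of a 300-base window only. The ratio of observed to expected CpG, with a median of 0.384 over all promoters, was 0.698 and 0.998 at the Pax6 starts, 0.547 at Neurog3, 0.837 at Neurod1, 0.791 at Nkx2-2, 0.704 at Fev and 1.05 at Isl1. Rfx6, at 0.156, was the only one of the 8 below that median.

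The DKO libraries were compared with the controls of the same time to ask what loss of both demethylases did to these factors 7 days and 5 months later. Of the 9 members, 1 fell and 0 rose at each time by limma on log2(CPM + 1), with Benjamini-Hochberg adjustment over all tested genes and a threshold of 0.05. That member was Pax6 both times. Of all 13601 genes tested at the acute time, 12.1% were called lower and 2.90% higher. After TMM scaling for composition these were 1120 lower and 701 higher genes, in place of 1641 and 394, and Pax6 remained the only member called. Of the 13316 tested at the prolonged time, 8.94% were called lower and 5.74% higher. The share of members called lower, 1 of 9, is near that background at both times. At an unadjusted p under 0.05 there were 3 members at the acute time (Pax6, Neurog3 and Nkx2-2), all lower, and 1 at the prolonged time, beside 28.9% and 28.2% of all tested genes in either direction. The median log2 fold change of the members was -0.22 at the acute time and -0.08 at the prolonged time, beside -0.07 and 0.00 over all tested genes.

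**Figure D1:**
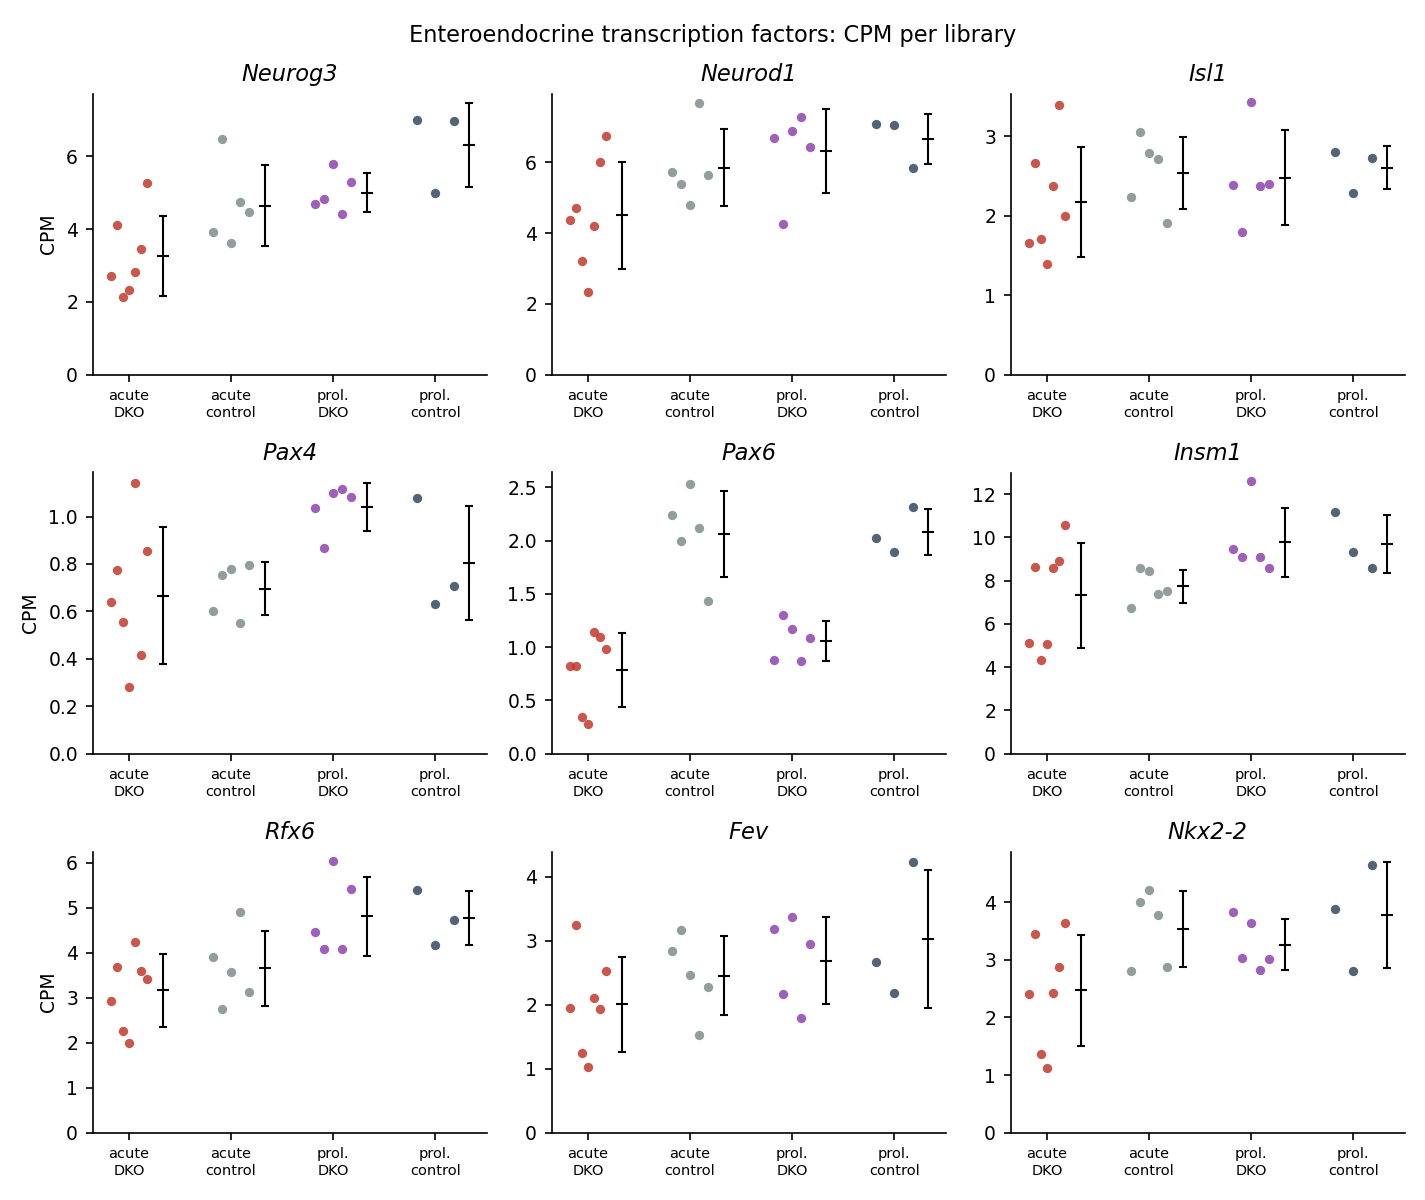
CPM (linear axis from 0) of each member in each of the 20 libraries, 1 point per library, with the group mean and SD beside the points. Pax6 alone has no overlap between DKO and control at either time, with DKO libraries between 0.280 and 1.14 CPM at the acute time and controls between 1.43 and 2.53 CPM.

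Pax6 encodes a paired-box homeodomain factor that is known to activate the glucagon gene Gcg in islet alpha cells and to take part in the specification of Gcg- and Gip-producing gut cells. It was the lowest of the 9 members per kilobase of its annotated exons, all merged, though not in CPM, where Pax4 averaged less. Its values rest on few reads. In acute DKO libraries Pax6 ranged from 0.280 to 1.14 CPM with a median of 0.828 CPM (6 to 25 reads), and the acute controls had 2.24, 2.0, 2.53, 2.12 and 1.43 CPM (27 to 53 reads). All 7 acute DKO libraries lay below every control, and the lowest were DKO 4 and DKO 3. The means were 0.785 ± 0.346 CPM in acute DKO libraries and 2.06 ± 0.403 CPM in acute controls, a ratio of 0.380. The log2 fold change was -0.79 ± 0.15 (SE; 95% interval -1.13 to -0.46, adjusted p = 0.00417 by limma, lower in 7 of 7). It is on the log2(CPM + 1) scale, which understates the change of a gene at this level.

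After 5 months Pax6 was 0.876, 1.30, 1.17, 0.873 and 1.08 CPM in the DKO libraries (11 to 21 reads), against 2.03, 1.89 and 2.32 CPM in the controls (23 to 47 reads). The groups again did not overlap, with all 5 DKO libraries below the lowest control. The means were 1.06 ± 0.186 CPM in prolonged DKO libraries and 2.08 ± 0.219 CPM in prolonged controls, a ratio of 0.510, and the log2 fold change was -0.58 ± 0.13 (95% interval -0.86 to -0.30, adjusted p = 0.0104 by limma). Without prolonged control 3 the fold change was -0.53 and the adjusted p 0.0555, so the prolonged call depends on that library, the shallowest of the 20. In the authors' deposited table, Pax6 had log2 fold changes of -1.30 (SE 0.291, adjusted p = 0.000195) at the acute time and -0.95 (SE 0.319, adjusted p = 0.0232) at the prolonged time, the only member under 0.05 there at either time. By the authors' deposited adjusted p, 8.35% of 15617 genes were lower at the acute time and 9.08% of 13365 at the prolonged time. Groups that do not overlap, with DKO lower, were found for 6.55% of tested genes at the acute time and 11.7% at the prolonged time, and among the members for Pax6 alone.

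The acute Pax6 call did not need the libraries that stood apart. Without DKO 3 and DKO 4 its log2 fold change was -0.63 (adjusted p = 0.00603 by limma). The animal numbers in the acute labels fall into ranges whose meaning the labels do not give. In a comparison added after the values were seen, Pax6 was lower in DKO within each range that held both genotypes: 1.14 CPM in DKO 5 and 2.0 and 2.53 CPM in controls 2 and 3, 1.10 CPM in DKO 6 and 2.12 CPM in control 4, and 0.828, 0.824 and 0.979 CPM in DKO 1, 2 and 7 and 2.24 CPM in control 1. Acute control 5 and acute DKO 3 and 4 had no counterpart in their range. An antisense gene, Pax6os1, overlaps Pax6 on the other strand, and the library kit named in the labels does not mark strand. Pax6os1 was between 0 and 0.113 CPM in acute DKO libraries and between 0 and 0.454 CPM in acute controls, too low to be tested, and reads shared by both genes cannot be told apart.

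Some other cell lists also held several genes called lower, while others held few or 0. Over all tested genes, 12.1% were called lower and 2.90% higher after 7 days. After 5 months these shares were 8.94% and 5.74%, and the counts below are to be read beside them. Of 7 tested tuft cell genes, 0 were called after 7 days and 0 after 5 months. Immune cell genes had 0 calls among 10 tested after 7 days and 0 among 9 after 5 months. Of 10 enterocyte genes, 0 fell at either time and 2 rose after 7 days. Of 8 goblet cell genes, 1 fell and 1 rose after 7 days, and 2 fell and 1 rose after 5 months. The 14 cell cycle genes summed to between 770 and 1085 CPM in acute DKO libraries and between 1222 and 1673 CPM in acute controls, with 14 of 14 called lower, and 13 of 14 were called lower at the prolonged time, when they summed to between 1145 and 1383 CPM in DKO libraries and between 1574 and 1901 CPM in controls. The 10 crypt base stem cell genes summed to between 978 and 2005 CPM in acute DKO libraries and between 2188 and 2844 CPM in acute controls, with 4 called lower, and after 5 months to between 1769 and 2031 CPM in DKO libraries and between 2411 and 2791 CPM in controls, with 2 called lower. Of the 7 genes listed for Paneth cells, 4 fell at the acute time. The 7 then summed to between 4692 and 12727 CPM in DKO libraries and between 8558 and 10200 CPM in controls, which overlap. These sums include Reg3g, which alone spanned 1014 to 11683 CPM in acute DKO libraries and 1027 to 5522 CPM in acute controls and was not called. Whether the reads of Reg3g and Guca2b came from Paneth cells was not tested. After 5 months 3 of the 7 fell and 1 rose, Guca2b, and they summed to between 3884 and 8302 CPM in DKO libraries and between 8575 and 9348 CPM in controls, with no overlap. Without acute DKO 3 and 4, the acute DKO sums were 770 to 1085 CPM for the cell cycle (13 of 14 called lower), 1403 to 2005 CPM for stem cell genes (4 of 10) and 4692 to 8042 CPM for Paneth cell genes (5 of 7, and Guca2b higher). The part of these cells in the Pax6 result was not tested. Neurons and islet cells also use several of the 9 factors. Of 10 enteric neuron genes, 8 were too low to be tested or had no row. The whole list summed to between 4.36 and 5.53 CPM in acute DKO libraries and between 4.92 and 6.32 CPM in acute controls, levels not below that of Pax6. Of the 2 tested neuron genes, Ret was lower in acute DKO libraries (-0.58 ± 0.11, adjusted p = 0.00293 by limma, and -0.64 with adjusted p = 0.00356 without DKO 3 and 4). It was not called at the prolonged time (-0.42, adjusted p = 0.0924). Snap25, the other, was not called at either time (0.14 and -0.01, adjusted p = 0.643 and 0.939 by limma). Among untested ones, Elavl3, Elavl4, Hand2, Stmn2 and Uchl1 had higher means in acute DKO libraries, and Tubb3 and Prph lower ones, all at most 0.619 CPM. Islet genes reached at most 0.16 CPM in sum, and Ins1, Ins2 and Ppy had no row at either time. The part of neurons and islet cells in the members' values was not tested.

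Neurog3 was the member with the next smallest p. Its acute values ranged from 2.14 to 5.26 CPM with a median of 2.83 CPM in DKO libraries (50 to 129 reads), and the controls had 3.92, 6.48, 3.63, 4.75 and 4.46 CPM (56 to 172 reads). The groups overlapped, with 5 of 7 DKO libraries below every control and DKO 7, at 5.26 CPM, above all controls but 1. The means were 3.26 ± 1.11 CPM in acute DKO libraries and 4.65 ± 1.12 CPM in acute controls (log2 fold change -0.42 ± 0.18, 95% interval -0.81 to -0.04, adjusted p = 0.133 by limma). Without DKO 7 the fold change was -0.52 and the gene passed the threshold (adjusted p = 0.0425), while without DKO 3 and 4 it was -0.28 (adjusted p = 0.338). After 5 months Neurog3 was 4.70, 4.82, 5.78, 4.41 and 5.29 CPM in DKO libraries and 6.99, 4.99 and 6.96 CPM in controls. Of the 5 prolonged DKO libraries 3 lay below every control, and the log2 fold change was -0.28 ± 0.13 (95% interval -0.56 to 0.01, adjusted p = 0.192).

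The factors that act early after Neurog3 did not pass the test at either time. Neurod1, a helix-loop-helix factor and direct target of Neurog3, ranged from 2.33 to 6.73 CPM in acute DKO libraries and from 4.79 to 7.67 CPM in acute controls (log2 fold change -0.35 ± 0.19, adjusted p = 0.250). At the prolonged time its means were 6.31 ± 1.18 CPM in DKO libraries and 6.66 ± 0.70 CPM in controls, which overlapped. A same-strand neighbour, Cerkl, overlaps Neurod1 in the GRCm38 annotation and stayed at or below 0.600 CPM in all 20 libraries. Insm1, a zinc-finger repressor of endocrine precursors, was the most abundant member in CPM, with 7.31 ± 2.42 CPM in acute DKO libraries and 7.74 ± 0.763 CPM in acute controls, and 9.76 ± 1.61 and 9.70 ± 1.34 CPM in the prolonged groups. Its 7 acute DKO libraries lay on both sides of the controls, 3 below and 4 above every control.

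Nkx2-2, a homeodomain factor of endocrine differentiation, had 1.12 to 3.63 CPM in acute DKO libraries and 2.80 to 4.21 CPM in acute controls. The log2 fold change was -0.43 ± 0.20 (95% interval from -0.85 to just under 0, adjusted p = 0.170), with 4 of 7 DKO libraries below every control, and -0.19 (adjusted p = 0.425) without DKO 3 and 4. At the prolonged time it averaged 3.26 ± 0.441 CPM in DKO libraries and 3.78 ± 0.920 CPM in controls (-0.15 ± 0.15, adjusted p = 0.553). Pax4, a paired-box factor that in mouse is needed for several hormone-producing types, averaged 0.667 ± 0.288 CPM in acute DKO libraries and 0.696 ± 0.111 CPM in acute controls. It was the member with the largest positive fold change at the prolonged time, 1.04 ± 0.102 CPM in DKO libraries and 0.805 ± 0.240 CPM in controls (0.18 ± 0.13, 95% interval -0.10 to 0.47, adjusted p = 0.401). Rfx6, a winged-helix factor of gut endocrine cells, averaged 3.17 ± 0.807 CPM in acute DKO libraries and 3.66 ± 0.832 CPM in acute controls, and 4.82 ± 0.880 and 4.77 ± 0.604 CPM in the prolonged groups.

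Isl1 and Fev act late, in maturing cells. Isl1, a LIM homeodomain factor, averaged 2.17 ± 0.694 CPM in acute DKO libraries and 2.54 ± 0.458 CPM in acute controls (-0.18 ± 0.15, adjusted p = 0.499), and 2.48 ± 0.595 and 2.61 ± 0.275 CPM in the prolonged groups. Fev, an ETS factor known from serotonin neurons and present in serotonin-producing gut cells, averaged 2.01 ± 0.750 CPM in acute DKO libraries and 2.45 ± 0.621 CPM in acute controls (-0.22 ± 0.18, adjusted p = 0.476), and 2.69 ± 0.680 and 3.03 ± 1.07 CPM in the prolonged groups. Over the 8 members that were not called, the 95% intervals of the log2 fold change reached from -0.85 to 0.28 at the acute time and from -0.56 to 0.47 at the prolonged time, so changes of that size are not excluded by these libraries.

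**Figure D2:**
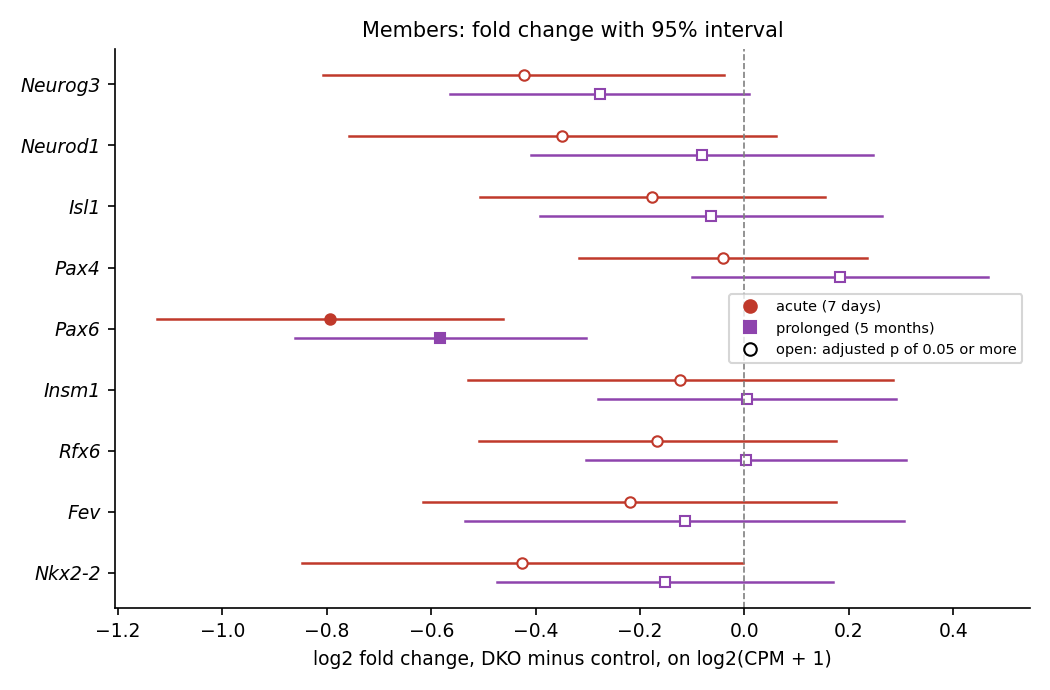
Log2 fold change (DKO minus control, on log2(CPM + 1)) of each member with its 95% interval, circles for the acute and squares for the prolonged time, filled where the adjusted p was under 0.05. Only the Pax6 points are filled, at -0.79 and -0.58.

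The DKO effect was set against itself between times, as the prolonged minus the acute log2 fold change. Of the 9 members 0 differed (limma effects, adjusted p between 0.746 and 0.918, with 0 at an unadjusted p under 0.05 and 0 by edgeR's interaction test), where 0.0458% of 13088 genes did. For Pax6 the difference was 0.21 ± 0.20 (95% interval -0.20 to 0.62, adjusted p = 0.776). The intervals of the 9 differences reached from -0.44 to 0.78.

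The acute log2 fold change was below 0 in 9 of 9 members and the prolonged one in 6 of 9, and the acute count changed without 2 libraries. DKO 3 and DKO 4 were the lowest pair of the 12 acute libraries for 7 members: Neurog3, Neurod1, Pax6, Insm1, Rfx6, Fev and Nkx2-2. The share of all tested genes with the same lowest pair was not counted, so this is not shown to be particular to the members. The pair also lay apart on the first principal component of all tested genes, which held 38.3% of their variance. The 9 members summed to 17.2 and 15.9 CPM in DKO 3 and DKO 4, and to between 22.6 and 36.2 CPM in the other 10 libraries. Without this pair 7 of 9 members were below 0, and their median was -0.06 beside -0.04 over all genes. Of the members not yet given without it, Neurod1 was then at -0.15, Isl1 at -0.06, Fev at -0.04, Rfx6 at -0.01, Pax4 at 0.05 and Insm1 at 0.07, with adjusted p between 0.591 and 0.971 by limma. The calls of Tox3 (-0.74, adjusted p = 0.00187), Notch1 (-0.58, 0.0180), Gcg (-0.79, 0.00278), Sct (-0.57, 0.0153), Ghrl (-0.69, 0.00146) and Rab3d (-0.42, 0.00868), described below, held without it. That of Pcsk1n did not (-0.36, 0.0635). Chga (0.62, 0.00468) and Slc18a2 then passed the threshold as higher, and Dll4, of the Notch list, as lower. The same libraries also differed in other lists. The 10 stromal and smooth muscle genes summed to 623 and 213 CPM in DKO 3 and 4 and to between 19.5 and 191 CPM in the others, and the 11 tested hormone and amine genes with the 2 untested ones to 275 and 187 CPM, against 332 to 494 CPM in the others. The part of these differences in the members' values was not tested.

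**Figure D3:**
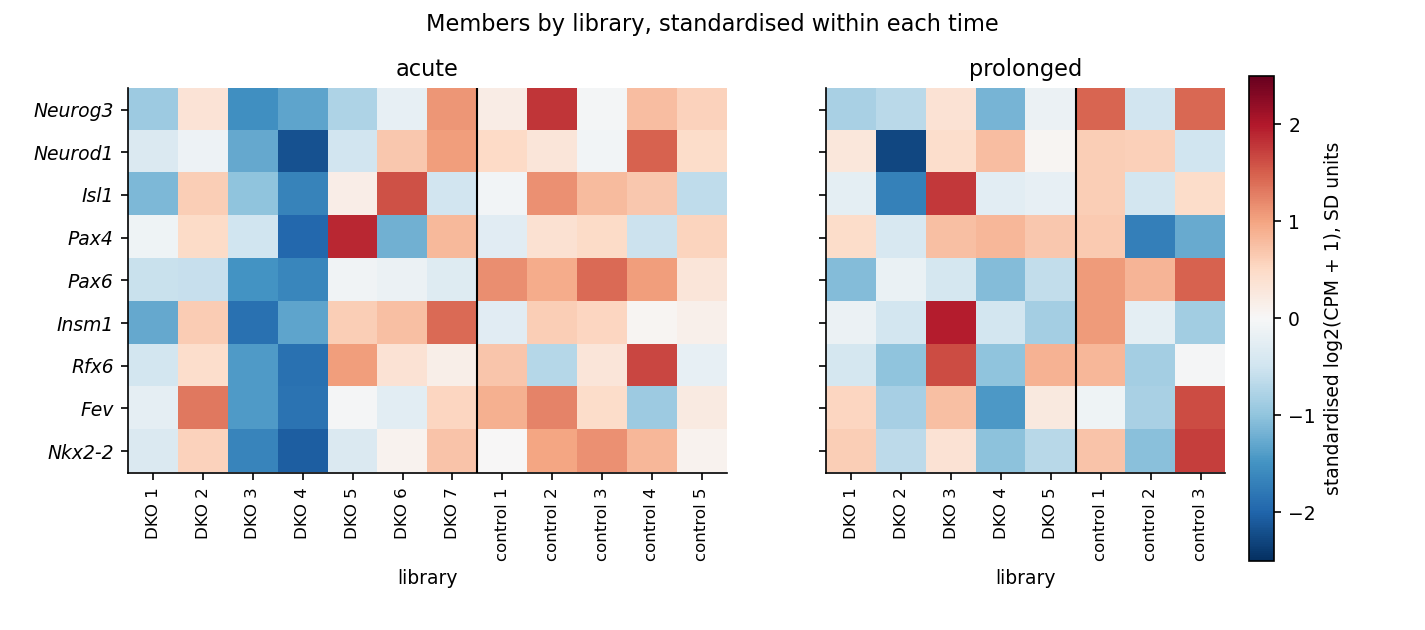
Members (rows) by library (columns, DKO left of control), coloured by log2(CPM + 1) standardised over the libraries of each time, in SD units. Acute DKO 3 and 4 are low for nearly all members, and Pax6 is lower in every DKO library than in any control of its time.

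Per kilobase of exon in the GRCm38 annotation, Insm1 and Neurog3 led the members and Pax6 came last in all 4 groups. Length here is that of all annotated exons of a gene merged, 6898 bases for Pax6, so a gene with many annotated exons is placed low by it. In acute DKO libraries Insm1 was at 2.36 ± 0.780, Neurog3 at 2.12 ± 0.720, Neurod1 at 1.65 ± 0.555 and Fev at 1.32 ± 0.493 CPM per kilobase. Nkx2-2 followed at 0.979 ± 0.380, Isl1 at 0.863 ± 0.276, Rfx6 at 0.852 ± 0.217, Pax4 at 0.487 ± 0.210 and Pax6 at 0.114 ± 0.050 CPM per kilobase. Ranges of neighbours in that order overlapped except those of Pax4 and Pax6. In acute controls Neurog3 led with 3.02 ± 0.724 and Pax6 was last with 0.299 ± 0.058 CPM per kilobase, and Pax4 (0.402 to 0.581) overlapped with neither Rfx6 above it nor Pax6 below it.

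Members followed each other only in part across the 20 libraries. With each gene standardised within its time, the nearest pair was Fev and Nkx2-2, with a mean absolute difference of 0.451 SD, followed by Neurog3 and Nkx2-2 with 0.457 SD. The farthest pair was Pax4 and Pax6, at 1.18 SD. Among all genes tested at both times, the 5 with the pattern most like Pax6 were Nipsnap1, Pkp1, Ttyh3, Plch2 and Car12, at between 0.185 and 0.229 SD, where the median gene stood at 0.946 SD. All 5 were called lower at both times. For Neurog3 the nearest were Fbxo21, Klhdc7a, Phc1, Polr3d and Gfra3, from 0.356 to 0.364 SD, and for the mean of the 9 members St6galnac2, Paics, Ern2, Baiap2l2 and Npepl1, from 0.289 to 0.332 SD. Of the 45 nearest genes over the 9 members, 1 belonged to an enteroendocrine list, and that was Nkx2-2 for Fev. These likenesses share libraries, depth and group differences and are given as a description.

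Set against Chga, a general enteroendocrine granule protein, most members were lower in DKO at the prolonged time, when Chga itself was higher. Chga was 128 ± 20.9 CPM in prolonged DKO libraries and 94.7 ± 8.87 CPM in prolonged controls (log2 fold change 0.42 ± 0.11, adjusted p = 0.0281 by limma), a call that ended without prolonged DKO 1 (0.39, adjusted p = 0.0572), DKO 5 (0.42, 0.0589), control 2 (0.35, 0.103) or control 3 (0.44, 0.0812). The log2 ratio of member to Chga, each as CPM + 1, was lower in every DKO than in every control library for 3 members at the acute time (Neurod1, Pax6 and Nkx2-2), where 5.35% of tested genes did the same. At the prolonged time it was so for 7 members, all but Neurod1 and Pax4, beside 49.2% of tested genes. For Pax6 the mean log2 ratio differed by -1.13 (acute) and -1.01 (prolonged), and for Neurog3 by -0.76 and -0.70.

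Of 13 tested genes among 14 further transcription factors of the lineage, among them Foxa1, Foxa2, Sox4, Myt1 and Pdx1, 1 fell at each time and 0 rose. It was Tox3, which encodes a high-mobility-group box protein, with 9.38 ± 1.17 CPM in acute DKO libraries and 17.6 ± 3.38 CPM in acute controls (-0.83 ± 0.12, adjusted p = 0.000766), and with 13.1 ± 1.78 and 19.1 ± 1.61 CPM in the prolonged groups (-0.51 ± 0.11, adjusted p = 0.00914). The groups did not overlap at either time. The list's median was -0.22 for the acute and -0.23 for the prolonged comparison, and 1 of 13 is near the shares over all tested genes.

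Of 10 secretory fate and Notch regulators, 1 fell at the acute time, and 1 fell and 1 rose at the prolonged time. Over all tested genes 12.1% and 8.94% were called lower at these times and 2.90% and 5.74% higher, so 1 of 10 lower is near those shares. Notch1, the receptor whose activity restrains the secretory fate, was 31.6 ± 8.57 CPM in acute DKO libraries and 51.6 ± 6.90 CPM in acute controls (-0.73 ± 0.16, adjusted p = 0.00963, with overlapping groups), and 38.4 ± 2.66 and 55.9 ± 6.95 CPM in the prolonged groups (-0.52 ± 0.08, adjusted p = 0.0018). Dll1, a Notch ligand carried by secretory progenitors, was 78.9 ± 3.66 CPM in prolonged DKO libraries and 66.7 ± 2.95 CPM in prolonged controls (0.24 ± 0.06, adjusted p = 0.0147), and without prolonged control 2 it was not called (0.20, adjusted p = 0.0508). Atoh1, the factor that opens the secretory lineage, was 20.7 ± 2.96 CPM in acute DKO libraries and 25.1 ± 2.03 CPM in acute controls (adjusted p = 0.0796). The median of the list was -0.24 for the acute and -0.07 for the prolonged comparison.

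Of 11 tested hormone and amine-synthesis genes, 3 fell 7 days and 6 fell 5 months after ablation, and 0 rose at either. Over all tested genes 12.1% and 8.94% were called lower at these times. Gcg, the glucagon and GLP-1 precursor, was 8.92 ± 2.01 CPM in acute DKO libraries and 17.3 ± 3.32 CPM in acute controls (-0.89 ± 0.16, adjusted p = 0.00273), and 9.86 ± 3.10 and 21.6 ± 1.65 CPM in the prolonged groups (-1.10 ± 0.19, adjusted p = 0.00254). Sct, secretin, also fell at both times (-0.64 ± 0.14 and -0.66 ± 0.14, adjusted p = 0.00716 and 0.0079), though not at the acute time with animal numbers as a block (-0.39, adjusted p = 0.0946). Ghrl, ghrelin, fell at the acute time, with 6.58 ± 1.38 CPM in DKO libraries and 12.2 ± 0.986 CPM in controls, and was 11.3 ± 2.02 and 9.25 ± 1.56 CPM in the prolonged groups (adjusted p = 0.264). Sst, Cck and Gip fell at the prolonged time, by 0.64, 0.48 and 0.41 on the log2 scale, and Pyy and Iapp were too low to be tested here. By the authors' deposited values Pyy was lower at the acute time (-2.48, SE 0.769, adjusted p = 0.0126), and Iapp had an adjusted p of 0.102. Pyy had 0 to 4 reads in acute DKO libraries and 1 to 15 in acute controls. The Cck call ended without prolonged DKO 4 (adjusted p = 0.0540), control 2 (0.0735) or control 3 (0.0866), and that of Gip without control 1 (0.0533) or control 3 (0.0767). The median of the 11 was -0.24 for the acute and -0.40 for the prolonged comparison.

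**Figure D4:**
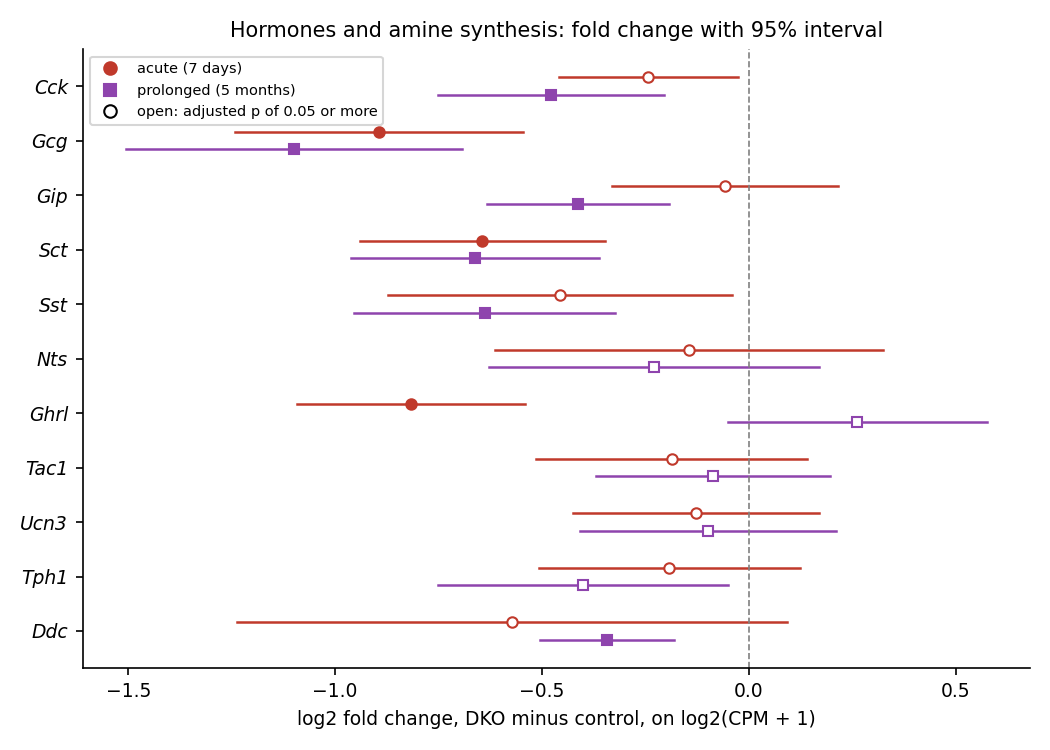
Log2 fold change (DKO minus control, on log2(CPM + 1)) of the 11 tested hormone and amine-synthesis genes with 95% intervals, circles for the acute and squares for the prolonged time, filled where the adjusted p was under 0.05. Gcg and Sct are filled at both times, and Ghrl only at the acute time.

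Of 17 tested granule and secretion proteins, 2 fell at the acute time, and 4 fell and 2 rose at the prolonged time, with medians of -0.09 and -0.18. Over all tested genes 12.1% and 8.94% were called lower at these times, and 5.74% higher at the prolonged one. Rab3d, a small GTPase of secretory vesicles, fell by 0.47 and 0.32 on the log2 scale (adjusted p = 0.00286 and 0.0117), and Ptprn, a granule membrane protein, fell by 0.74 at the prolonged time (adjusted p = 0.00747). Slc18a2, the vesicular monoamine transporter, rose with Chga, to 7.84 ± 0.925 CPM in prolonged DKO libraries, against 4.73 ± 1.04 CPM in prolonged controls (0.64 ± 0.14, adjusted p = 0.00953). Its acute values were 5.72 ± 1.72 CPM in DKO libraries and 3.88 ± 0.354 CPM in controls, with 6 of 7 DKO libraries above every control. There the change was 0.42 ± 0.16 (adjusted p = 0.103 by limma), and the authors' deposited adjusted p was 0.0107. The falls of Pcsk1n, an inhibitor of prohormone convertase (-0.37 and -0.47, adjusted p = 0.0339 and 0.0433), and of Gch1, of biopterin synthesis (-0.36 at the prolonged time, adjusted p = 0.0382), did not hold when single libraries were left out. The acute Pcsk1n call ended without DKO 1, 4, 6 or 7 or control 1, 2, 3 or 4 (adjusted p up to 0.0854) and the prolonged one without DKO 2, 3, 4 or 5 or any control (up to 0.158). The Gch1 call ended without prolonged DKO 1, 2, 3 or 5 or control 2 or 3 (up to 0.192).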

How the data were processed

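Poly(A) RNA of jejunal epithelium was made into libraries with a NEBNext Ultra kit, per the labels' protocols. STAR, featureCounts 1.6.2, SAMtools 1.9, bedtools 2.27.1, DESeq2, FastQC 0.11.5 and the build mm9 are listed without roles, per the submitters' processing notes. The authors deposited 1 table per time with CPM per gene and library, as their equal column sums show. The same tables hold the authors' log2 fold changes, the mean signal that DESeq2 gives, and p-values with adjusted p-values, per the file headers. The standard error of the fold change, entered here as a score, is also the authors' own. The use of strand in counting is not given. In every library 100% of CPM values were whole multiples of 1 read within 0.01 reads, so whole reads were recovered, on which edgeR called 1748 acute and 1991 prolonged genes. For prolonged control 3 this is weaker evidence, its step being close to a power of 10. No pair of the 44 replicate pairs was a duplicate: their counts differed by 6.49 to 148 times the sampling variance. Acute labels carry animal numbers and prolonged ones a replicate number only, so p-values measure the spread between these libraries.

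The 9 members and all gene lists were chosen with earlier results of these data known. Each time was fitted alone with limma 3.58.1 (trend fit, R 4.3.3) on log2(CPM + 1), over genes with CPM of 0.5 or more in at least 5 acute or 3 prolonged libraries, two-sided, with Benjamini-Hochberg adjustment over all tested genes. The tables were normalized separately, so times were compared only through the gap between their fold changes, divided by its standard error and read from a t distribution. Members were named throughout; from the 4 other enteroendocrine and Notch lists, genes called at either time, up to 6 a list, were named. Likeness is the mean absolute difference of standardised log2(CPM + 1) over 20 libraries. Lengths and overlapping genes come from GENCODE M21 (GRCm38), and promoters from RefSeq. Alternatives were other pseudocounts (0.5, 0.1), no filter, CPM of 1 or more, TMM-scaled CPM, edgeR 4.0.16, DESeq2 1.42.0 and limma-voom on recovered reads, array weights, blocks and leaving out libraries. The fitting code was tested on simulated data.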

Additional observations from a re-analysis of the deposited data

Results flagged for a closer look

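Chance marks about 1 in 20 groups as holding a library far from the rest, and 3 of 75 groups of member and named enteroendocrine genes held one. Neurod1 was 4.27 CPM in prolonged DKO 2, where the other 4 prolonged DKO libraries lay between 6.43 and 7.28 CPM. Insm1 was 12.6 CPM in prolonged DKO 3, and between 8.60 and 9.47 CPM in the other prolonged DKO libraries. Chga was 71.4 CPM in acute control 1, below the other acute controls at 83.7 to 87.7 CPM.

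The DKO effect on Ghrl differed between times by 1.08 on the log2 scale, prolonged minus acute (limma effects, adjusted p = 0.0229). This call ended without acute control 2 (adjusted p = 0.0509), acute control 3 (0.0699), prolonged DKO 1 (0.0550), prolonged control 2 (0.101) or prolonged control 3 (0.144), in 1 fit over both times (0.103) and in edgeR's interaction test (0.169).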

How the results depend on the processing

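Pax6 kept its call under all 24 acute alternatives, with log2 fold changes from -1.40 to -0.63, and under 16 of 18 prolonged ones, all but the replicate block and the omission of control 3. Part of the acute span is a change of scale, since not all alternatives work on log2(CPM + 1). On that scale, acute values with single libraries left out ranged from -0.87 to -0.72. Prolonged values with libraries left out ranged from -0.63 to -0.53. The number of members called lower ranged, at 7 days, from 1 to 2 and, at 5 months, from 0 to 1 when single libraries were left out. With array weights 2 members were called lower at the prolonged time, the second being Neurog3 (-0.35, adjusted p = 0.0461).

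Same-numbered libraries did not deviate together (r from -0.202 to 0.198 for acute and from -0.240 to -0.158 for prolonged pairs). Differently numbered acute pairs reached from -0.472 to 0.532, so these few pairs cannot settle whether replicate numbers pair libraries. With the replicate block 2 members were called lower at the acute time, Neurog3 having -0.56 (adjusted p = 0.0414), and 0 at the prolonged time, Pax6 having -0.55 (adjusted p = 0.142). The genes called went to 947 (acute) and 528 (prolonged), in place of 2035 and 1955, and of 15 called list genes of the prolonged time 12 lost their call, all but Chga, Gcg and Notch1. Leaving out 1 library brought the genes called to as few as 1237 and 1052, array weights brought the prolonged ones to 3061, and the 6 genes that differed between times ranged from 0 to 11. Over all alternatives, hormone genes called lower numbered 2 to 5 (acute) and 1 to 6 (prolonged), granule genes called lower 1 to 3 and 0 to 7, and further factors called lower 1 and 0 to 2. Notch regulators called lower numbered 1 to 3 and 1 to 2.

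Signs turned for uncalled members near 0. With array weights these were acute Fev at 0.027, Insm1 at 0.026 and Pax4 at 0.033, and prolonged Neurod1 at 0.015. Without acute DKO 3 and 4, acute Insm1 was 0.073 and Pax4 0.048, and the differences between times were -0.077 for Fev, -0.068 for Insm1 and -0.0028 for Isl1. With animal numbers as a block acute Insm1 was 0.14 and Pax4 0.11. Acute Pax4 was 0.027 by edgeR and 0.042 by DESeq2, and by limma-voom prolonged Insm1 was -0.037 and Rfx6 -0.016. With single libraries left out, acute Pax4 ranged from -0.10 to 0.020 and the difference for Fev from -0.049 to 0.31. At the prolonged time Fev ranged from -0.27 to 0.091, Insm1 from -0.082 to 0.10, Isl1 from -0.16 to 0.011, Neurod1 from -0.16 to 0.033 and Rfx6 from -0.072 to 0.079. The causes were not tested. The few reads of Pax6 and Pax4, down to 6 in a library, limit their precision.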
